A study of Mus musculus with 550 samples.

Results

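Dazl, Stra8 and Smc1b are 3 germline genes of the 55228 gene names in the count table, and their reads were followed through single cells of mouse embryoid bodies (EBs) that carried or lacked a de novo DNA methyltransferase. They were selected on their own measured differences between mutant and wild-type cells, so each difference given for them is a description and carries no test. EBs are aggregates in which embryonic stem cells (ESCs) differentiate once leukemia inhibitory factor is withdrawn. The cells came from E14 ESCs (129/Ola) that were wild type (WT), Dnmt3a -/- (3AKO) or Dnmt3b -/- (3BKO), and EBs of each genotype were sampled at day 3 and at day 9 in the same medium, with no other agent given. Both mutants are constitutive knockouts, and although several clones of each are described in the methods, no label says which clone a cell came from. Of 550 cells, 486 had at least 50000 assigned reads, at least 2000 detected genes and at most 50% mitochondrial reads and were kept: 79 WT, 83 labelled 3AKO and 80 labelled 3BKO at day 3, and 89 WT, 88 3AKO and 67 3BKO at day 9.

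DNMT3A and DNMT3B place methyl groups on previously unmethylated CpG sites during early development, and CpG-rich promoters of germline genes are among their known targets. Dazl encodes an RNA-binding protein that lets primordial germ cells proceed to gametogenesis, and its promoter is known to be methylated in somatic tissues. Stra8 (stimulated by retinoic acid) encodes a factor required for the start of meiosis. Smc1b encodes the meiosis-specific form of the SMC1 cohesin subunit, and it is a known target of the repressor E2F6. None of these genes is regarded as a marker of early somatic lineages.

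In GRCm38, Dazl (ENSMUSG00000010592.9) lies on the minus strand at chr17:50279395-50293636, Stra8 (ENSMUSG00000029848.11) on the plus strand at chr6:34920163-34939344 and Smc1b (ENSMUSG00000022432.7) on the minus strand at chr15:85064689-85131964. No exon of the 3 genes shares bases with an exon of another gene in GENCODE vM21. The start of Smc1b lies 113 bases from that of Ribc2, a gene on the opposite strand. Promoter sequence is shown for Dazl and Smc1b because their upstream windows are rich in CpG, the site at which both enzymes act. It was taken from RefSeq (GRCm38.p6, the C57BL/6J reference and not the 129 strain of these cells), 5′ to 3′ on the strand of the gene, with each CpG in capitals and with every base in an annotated exon left out.
Dazl, chr17:50293637-50293870, minus strand: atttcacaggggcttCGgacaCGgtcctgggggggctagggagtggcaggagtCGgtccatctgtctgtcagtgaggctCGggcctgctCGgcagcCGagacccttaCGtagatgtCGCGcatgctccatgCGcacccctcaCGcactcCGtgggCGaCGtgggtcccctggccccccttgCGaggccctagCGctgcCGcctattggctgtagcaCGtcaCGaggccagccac
Smc1b, chr15:85131965-85132077, minus strand: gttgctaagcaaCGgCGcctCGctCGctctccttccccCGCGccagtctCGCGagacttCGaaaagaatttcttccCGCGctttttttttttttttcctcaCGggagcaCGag

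The 250 bases before the RefSeq start held 20 CpG for Dazl, 5 for Stra8 and 25 for Smc1b, against a median of 6 over 32851 promoters of the RefSeq table. Dazl had more CpG than 82.1% of these promoters and Smc1b more than 89.3%, whereas Stra8 had more than 44.4%. The whole Stra8 window lies in an exon of an annotated upstream transcript, an untranslated region, so its letters are not printed. The E2F core TCCCGC was found on either strand once in the Smc1b window, at base -47, and in neither other window; 16.9% of all promoters hold it. The half-site AGGTCA of retinoic acid receptors occurred at 2 places in the Stra8 window, against 14.02% of all promoters that hold it, and not in the windows of Dazl and Smc1b. The E-box CACGTG, at 6.02% of promoters, was in none of the 3. A match describes letters only, and no methylation or binding was measured in these cells.

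For each group the reads of a gene in its kept cells were added up and scaled to 1000000 assigned reads (CPM). The 2 library batches of a plate were 2 sets of its columns, so they show spread within a plate, whereas the batches of a mutant label at day 3 sat on different plates. Whether batches came from separate cultures or clones is not given in the labels. Kept cells had between 54720 and 1450202 assigned reads with a median of 263902, and the 12 pools of genotype label, day and batch held 8071118 to 22867811 reads. Intervals are exact at the 95% level (Poisson for sums, Clopper-Pearson for shares) and cover counting error only. These reads have no molecular identifiers, so intervals of sums and folds leave out amplification copies and the spread between cells and batches. Of the 3BKO cells sorted at day 9, 72.04% were kept, against 86.8 to 97.8% in the other groups. As each genotype and day is 1 sample, none of the differences below has a replicate check.

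The targeted genes were examined in every pool. At day 9, the WT pools (batch 1 and batch 2) held 177 and 144 CPM of Dnmt3a, the 3AKO pools 26.1 and 23.9, and the 3BKO pools 84.1 and 44.8. Dnmt3b stood at 155 and 189 CPM in the WT pools, 193 and 336 in the 3AKO pools, and 15.9 and 16.8 in the 3BKO pools. At day 9 each mutant label thus had the lowest level of its own target. Exons of Dnmt3a and of Dnmt3aos, on the other strand, overlap. At day 3 the wells of plate 210 (batch 1 labelled 3BKO, batch 2 labelled 3AKO) had 587 and 335 CPM of Dnmt3a, those of plate 211 (batch 1 labelled 3AKO, batch 2 labelled 3BKO) 25.8 and 12.8, and those of plate 209 (WT) 455 and 267. Dnmt3b at day 3 had 600.1 and 523 CPM on plate 209, 167 and 85.1 on plate 210, and 261 and 185 on plate 211. The batch 2 labels of the mutants at day 3 are therefore in doubt, and day 3 values are given by plate as well as by label.

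At day 9 the 3 genes had 3 different patterns across the genotypes. Dazl was 6.35-fold the WT level in 3AKO and 6.43-fold in 3BKO, Stra8 was 10.6-fold in 3BKO and 0.398-fold in 3AKO, and Smc1b was 6.30-fold in 3AKO and 0.641-fold in 3BKO. Both mutants were compared with the same WT cells. A gene was called higher or lower where its log2 ratio, computed on CPM + 1, was at least 1 in size and of the same sign in both batches, among genes with a read in at least 10% of cells of either group. In 3AKO, 2 of the 3 genes were called higher (1.87% of 12322 genes compared were) and 0 of the 3 lower (2.24%). In 3BKO, 2 of the 3 were called higher (4% of 12638 genes) and 0 lower (5.82%). As the genes were chosen on these contrasts, nothing is read from those counts.

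**Figure D1:**
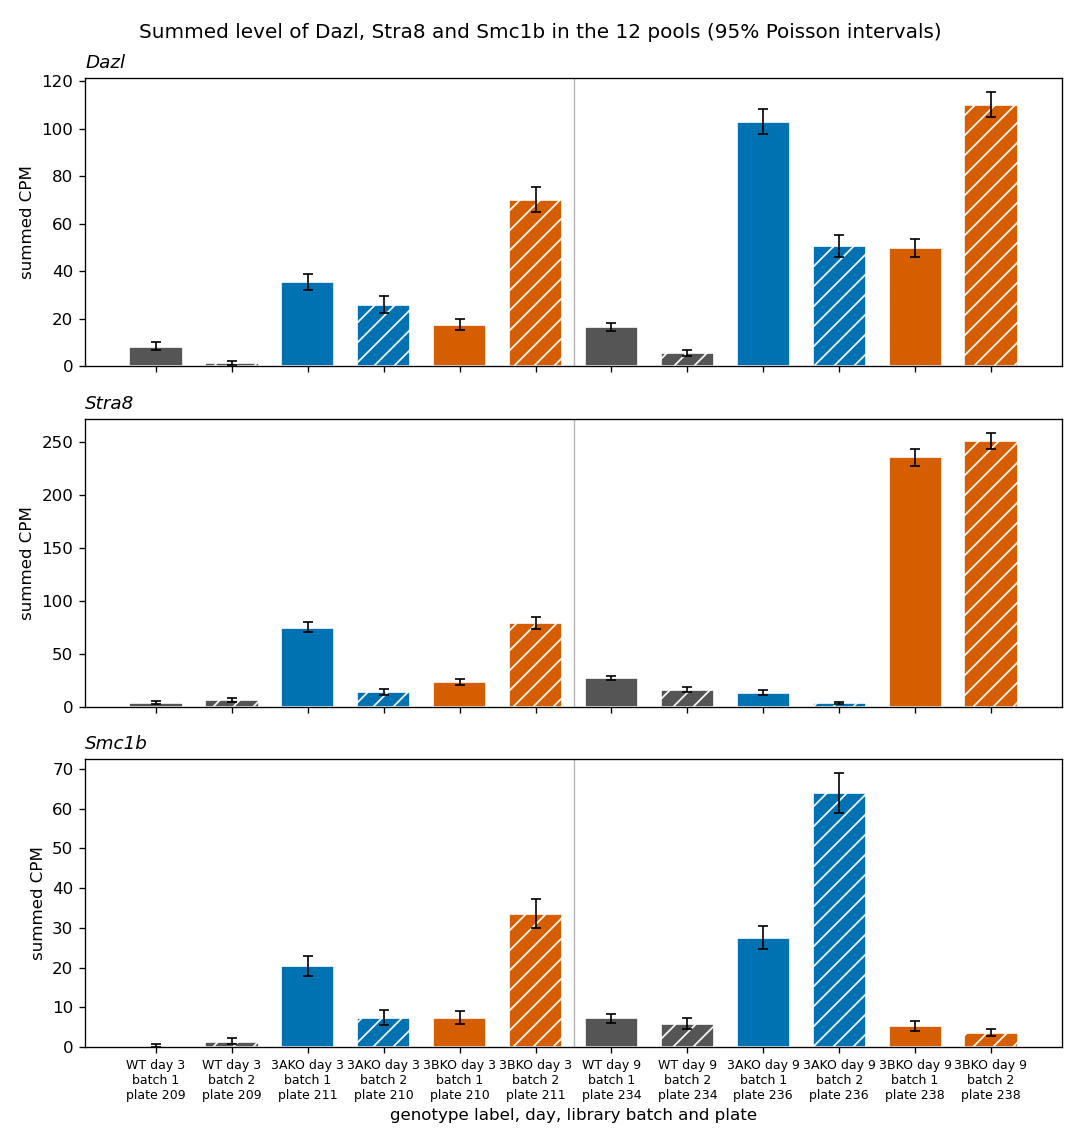
Summed level of Dazl, Stra8 and Smc1b (CPM, vertical axes, each with its own range) in the 12 pools of genotype label, day and library batch; hatched bars are batch 2, and black lines are 95% Poisson intervals. At day 9 Dazl is high in both mutants, Stra8 in 3BKO (235 and 251 CPM) and Smc1b in 3AKO (27.4 and 63.8 CPM), and at day 3 plate 211 is the highest for all 3 genes.

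Dazl reached its highest summed levels in the day 9 mutants. It had 16.6 and 5.52 CPM in WT day 9 (batch 1 and batch 2), 103 and 50.5 in 3AKO and 49.8 and 110.2 in 3BKO. Every mutant pool lay above both WT pools, while the pools of the mutants overlapped each other. In 3AKO its log2 ratio to WT came to 2.58 (batches 2.56 and 2.98), and the fold interval was 5.73 to 7.06. For 3BKO it was 2.59 (1.53 and 4.09), with a fold interval of 5.81 to 7.13, while the batches alone had folds of 3.00 and 19.95. Set against each other, the mutants differed by 0.02 (log2 of 3BKO over 3AKO), with opposite signs in the batches (-1.03 and 1.11). In batch 2 of 3AKO a cell held 69.2% of the Dazl reads, and without it the pool had 16.6 CPM.

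Stra8 separated the mutants at day 9. It had 26.9 and 15.8 CPM in the WT pools, 13.3 and 3.43 in 3AKO, and 235 and 251 in 3BKO. The 3BKO pools were far above the others, and the 3AKO pools were below both WT pools. Without the top cell of each pool, 3AKO had 9.85 and 1.90 CPM and WT 15.02 and 6.68, so these pools then overlapped. Relative to WT, the 3BKO log2 ratio came to 3.34 (batches 3.08 and 3.91), and the fold interval was 9.81 to 11.4. That of 3AKO to WT was -1.24 (-0.97 and -1.92), which missed the size limit in batch 1 and was not called. The 3BKO level was 26.5 times that of 3AKO (interval 23.2 to 30.5), and Stra8 was called higher in this contrast, as were 5.45% of 12734 genes. In 3BKO 43 of 67 cells had a read and 40 had at least 10 reads, while 5 cells held 50% of the reads. In batch 2 a cell held 49.6% of them, and without it the pool had 139 CPM.

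Smc1b was high in 3AKO only among the day 9 groups. It had 7.22 and 5.86 CPM in the WT pools, 27.4 and 63.8 in 3AKO, and 5.27 and 3.51 in 3BKO. No pool of 1 genotype overlapped with another genotype's, and 3BKO was the lowest. Its 3AKO log2 ratio to WT was 2.49 (1.79 and 3.24, fold interval 5.46 to 7.30), and that of 3BKO to WT was -0.54 (-0.39 and -0.60), which was not called. Between the mutants it was -3.03 (3BKO over 3AKO, -2.18 in batch 1 and -3.85 in batch 2), a call of lower that 6.09% of genes shared. The 131 Smc1b reads of 3BKO came from 7 cells, and the 57 reads of batch 2 from 1 cell.

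Among all genes compared, the members' day 9 ratios stood near the ends of the range where they were called. In 3AKO, Dazl ranked 20 and Smc1b 27 from the top of 12322 genes by log2 ratio, and Stra8 ranked 11896. In 3BKO, Stra8 ranked 38 and Dazl 99 of 12638, and Smc1b ranked 9375. The median ratio of all genes was -0.09 in 3AKO and -0.05 in 3BKO, with 90% of genes between -1.10 and 0.92 and between -1.58 and 1.38. These ranks show how far the genes stood from the rest and are no independent evidence, because the same ratios led to their choice.

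**Figure D2:**
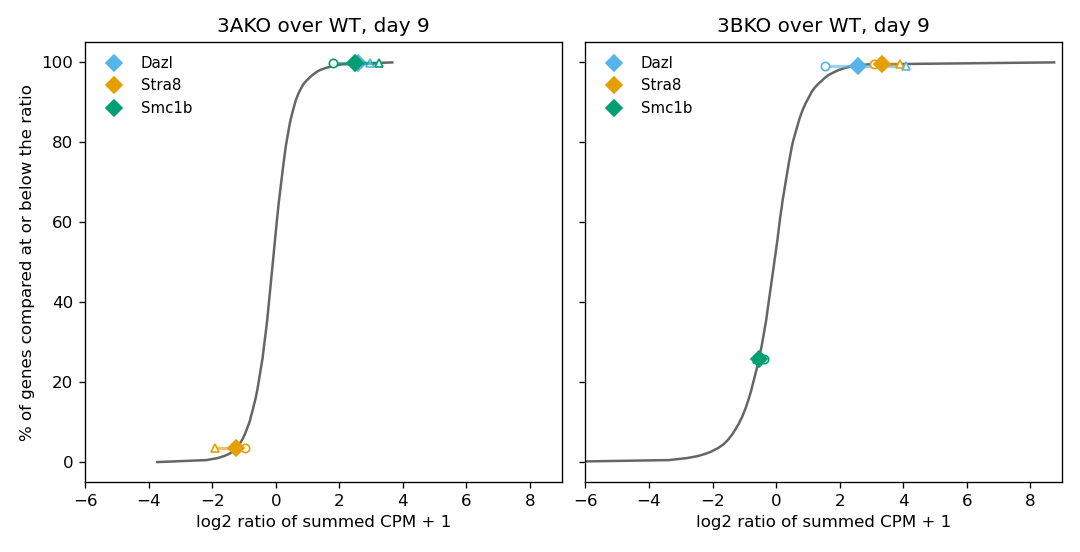
Log2 ratio of summed CPM + 1 over WT at day 9 (horizontal axis) for 3AKO and 3BKO. The grey line is the cumulative share of all genes compared (vertical axis, percent), diamonds are the 3 genes over both batches, and open circles and triangles are batch 1 and batch 2. The diamonds follow the line, as their height is the rank of the gene. Dazl lies at the upper end in both mutants, Stra8 in 3BKO and Smc1b in 3AKO. Stra8 in 3AKO and Smc1b in 3BKO have negative ratios.

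To compare genes with each other, CPM was divided by the length of each gene's annotated exons (3820 bases for Dazl, 1803 for Stra8 and 4047 for Smc1b). In WT day 9 the levels per kilobase were 12.8 CPM for Stra8, 3.35 for Dazl and 1.67 for Smc1b. In 3AKO the order was Dazl (21.3), Smc1b (10.5) and Stra8 (5.09), and in 3BKO it was Stra8 (135), Dazl (21.5) and Smc1b (1.07). At day 9 Stra8 thus had the highest level per length in WT and in 3BKO and the lowest in 3AKO.

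At day 3 all 3 genes were low in WT. Dazl had 8.27 and 1.18 CPM (batch 1 and batch 2), Stra8 3.73 and 6.14, and Smc1b 0.178 and 1.30. Smc1b rested on 13 reads in 5 of 79 cells. Plate 211, the plate with low Dnmt3a, had the highest day 3 level of each gene: 35.3 and 69.95 CPM of Dazl, 74.7 and 78.5 of Stra8, and 20.3 and 33.5 of Smc1b. Its log2 ratios to plate 209 were 3.04 for Dazl (1.97 in batch 1 and 5.02 in batch 2), 3.74 for Stra8 (4.0 and 3.48) and 4.03 for Smc1b (4.18 and 3.91). All 3 were called higher, as were 2.2% of 12988 genes. Smc1b passed the detection minimum through plate 211 only (52.4% of cells with a read, beside 6.33% on plate 209).

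Plate 210 lay between them. Dazl had 17.4 and 25.8 CPM there, Smc1b 7.30 and 7.19, and Stra8 22.8 and 13.5. The log2 ratios to plate 209 were 1.81 for Dazl (0.99 in batch 1 and 3.62 in batch 2), 2.31 for Smc1b (2.82 and 1.83) and 1.80 for Stra8 (2.33 and 1.02). Smc1b and Stra8 were called higher, against 1.45% of 12843 genes, and Dazl fell just short of the size limit in batch 1, which it passed (1.55) without the top cell of each pool. Here too Smc1b was compared through the mutant plate only (22.8% of cells with a read, beside 6.33% on plate 209). Stra8 on this plate rested largely on 1 cell in each batch, which held 74.5% and 84.4% of its reads. Without those cells the pools had 5.98 and 2.19 CPM, beside 1.45 and 3.83 in the WT pools treated alike, so that batch 2 was then below WT and the call of Stra8 was lost, also for label 3AKO, which shares that batch.

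By label, the pools of each mutant mix both plates. Dazl had 31.6 CPM over the cells labelled 3AKO and 41.1 over those labelled 3BKO, Stra8 51.1 and 47.9, and Smc1b 15.3 and 19.07. The log2 ratios to WT were 2.39, 3.17 and 3.29 for label 3AKO, with all 3 genes called higher (1.35% of 12893 genes), and 2.76, 3.08 and 3.60 for label 3BKO, with Stra8 and Smc1b called (1.05% of 12941 genes). Smc1b entered these comparisons through the mutant labels only, as 6.33% of WT cells had a read. In 3AKO-labelled cells the batches differed by plate: Stra8 had 74.7 CPM in batch 1 (plate 211) and 13.5 in batch 2 (plate 210).

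The levels can be put in order with the range of the batches as their spread. For Dazl the order was 3BKO day 9, 3AKO day 9, plate 211, plate 210, WT day 9 and WT day 3. Neighbours in it overlapped except for plate 211 with plate 210 and plate 210 with WT day 9. The gap between plate 210 and WT day 9 rested on single cells. Leaving out each pool's top cell gave plate 210 13.2 and 15.4 CPM and WT day 9 13.5 and 1.97, which overlap. For Stra8 the order was 3BKO day 9, plate 211, WT day 9, plate 210, 3AKO day 9 and WT day 3. The overlapping neighbours were WT day 9 with plate 210 and 3AKO day 9 with WT day 3. Without the top cell of each pool, plate 210 (5.98 and 2.19 CPM) overlapped with 3AKO day 9 (9.85 and 1.90). Plate 210 then no longer overlapped with WT day 9 (15.02 and 6.68). For Smc1b the order was 3AKO day 9, plate 211, plate 210, WT day 9, 3BKO day 9 and WT day 3. There 3AKO day 9 overlapped with plate 211, and plate 210 with WT day 9. Once each pool's top cell was left out, 3BKO day 9 (3.10 and 0 CPM) also overlapped with WT day 3 (0.0907 and 0.720).

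In WT the genes also differed between days. From day 3 to day 9 Stra8 had a log2 ratio of 2.06 (2.56 in batch 1 and 1.23 in batch 2) and Smc1b of 2.22 (2.80 and 1.58), and both were called higher, against 5.86% of 12900 genes. Smc1b entered this comparison through day 9 only, with a read in 15.7% of cells there and in 6.33% at day 3. The call of Stra8 rests on single cells: 1 cell held 60.3% of its reads in batch 2 of WT day 9, and without the top cell of each pool batch 2 had 6.68 CPM at day 9 and 3.83 at day 3, a log2 ratio of 0.67. The unthinned share of cells with a Stra8 read was 12.4% at day 9 and 12.7% at day 3. Dazl had 1.15 (0.92 and 1.58) and was not called, although without the top cells (1.59 and 1.40) it would be. In the mutants no day is set against the other by label without the doubt on day 3. Stra8 in 3AKO day 9 (13.3 and 3.43 CPM) was below the plate 211 pools of day 3 (74.7 and 78.5). It was not separated from plate 210 (22.8 and 13.5), as without the top cell of each pool 3AKO day 9 had 9.85 and 1.90 CPM and plate 210 had 5.98 and 2.19. Smc1b in 3BKO day 9 (5.27 and 3.51) was below all 4 mutant pools of day 3 (7.19 to 33.5).

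To compare how many cells carried a read, every cell was first thinned to 50000 reads. Dazl was read in 10.1% of WT cells at day 9 (4.73 to 18.3%, 15.7% unthinned), 26.1% in 3AKO (17.3 to 36.6%, 30.7% unthinned) and 28.4% in 3BKO (18.01 to 40.7%, 32.8% unthinned). Most cells of each genotype therefore had no Dazl read at this depth. For Stra8 these shares were 12.4% (6.33 to 21.04%), 9.09% (4.01 to 17.1%) and 62.7% (50.01 to 74.2%), and for Smc1b 12.4% (6.33 to 21.04%), 31.8% (22.3 to 42.6%) and 5.97% (1.65 to 14.6%). Unthinned, Stra8 was read in 12.4, 11.4 and 64.2% of cells and Smc1b in 15.7, 44.3 and 10.4%.

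The share of 3BKO cells with a Stra8 read was 50.3 percentage points above WT (interval 34.96 to 63.3). For Dazl the share was 16.02 points above WT in 3AKO (3.99 to 27.8) and 18.2 in 3BKO (5.04 to 31.7), and for Smc1b it was 19.5 points above WT in 3AKO (6.57 to 31.8). The intervals of the other contrasts with WT held 0: -3.27 points for Stra8 in 3AKO (-13.3 to 6.78) and -6.39 for Smc1b in 3BKO (-16.1 to 4.12). Cells of a sample are no replicates of a genotype, so these intervals decide no difference between genotypes, whether they hold 0 or not.

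**Figure D3:**
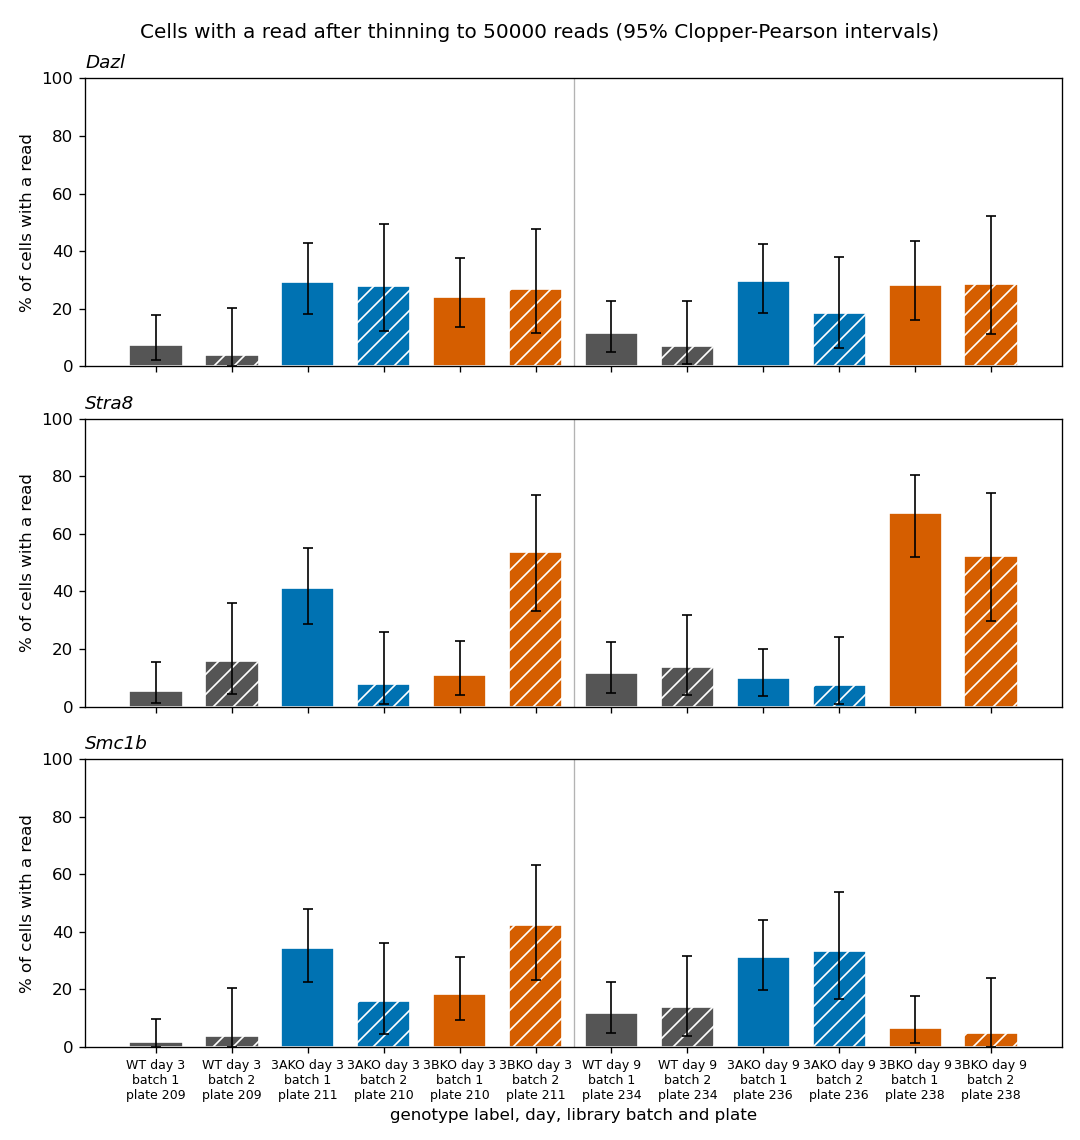
Percent of kept cells with at least 1 read of each gene after thinning to 50000 reads (vertical axes), in the 12 pools of genotype label, day and library batch; hatched bars are batch 2, and lines are 95% Clopper-Pearson intervals. For Stra8, 67.4% and 52.4% of the 3BKO day 9 cells had a read in the 2 batches, and for Dazl the mutant pools range from 18.5% to 29.5%.

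At day 3, Dazl was read in 6.33% of plate 209 cells (2.09 to 14.2%), 25.3% of plate 210 (16.2 to 36.4%) and 28.6% of plate 211 (19.2 to 39.5%). The mutant plates had similar shares of Dazl cells while their summed levels differed (20.8 and 50.4 CPM). Stra8 was read in 8.86% (3.64 to 17.4%), 10.1% (4.47 to 18.98%) and 45.2% (34.3 to 56.5%) of cells, so that plate 210 had about the share of plate 209. For Smc1b the shares were 2.53% (0.308 to 8.85%), 17.7% (10.04 to 27.9%) and 36.9% (26.6 to 48.1%). Unthinned, the shares on plates 209, 210 and 211 were 13.9, 29.1 and 38.1% for Dazl, 12.7, 11.4 and 52.4% for Stra8, and 6.33, 22.8 and 52.4% for Smc1b.

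Among cells with a read, levels ranged widely, and single cells weighed on the WT sums: without its top cell WT day 3 had 2.67 CPM of Dazl instead of 5.22 and 0.409 of Smc1b instead of 0.659, and WT day 9 had 15.3 of Stra8 instead of 23.1. In 3AKO day 9 the 27 cells with Dazl reads had between 6.72 and 1351 CPM (median 145), and in 3BKO day 9 the 22 such cells had between 6.70 and 865 CPM (median 123). The 43 cells with Stra8 reads in 3BKO day 9 had between 16.1 and 1394 CPM (median 231), and the 11 such WT cells had between 10.8 and 562 (median 89.05). For Smc1b the 39 cells of 3AKO day 9 had between 3.08 and 353 CPM (median 38.3) and the 14 WT cells between 3.18 and 155 (median 31.7). The ranges of WT and mutant cells overlapped for each gene.

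**Figure D4:**
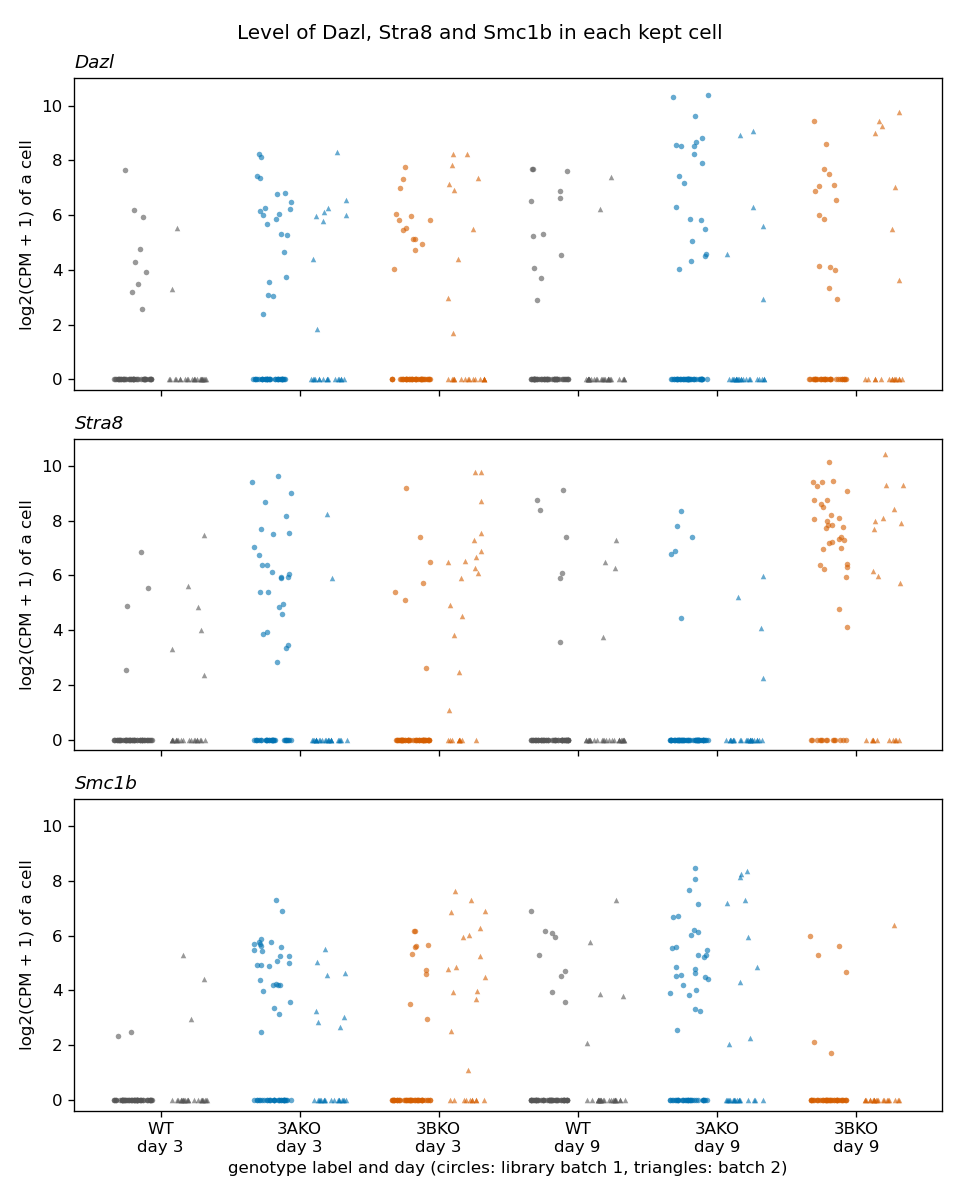
Level of each gene in every kept cell, as log2(CPM + 1) (vertical axes), by genotype label and day; circles are cells of library batch 1 and triangles of batch 2, spread sideways at random. Among these label groups, most cells lie at 0 except in 3BKO day 9 for Stra8, with 43 of 67 cells above 0. By plate, 52.4% of plate 211 cells at day 3, which carry both mutant labels, had a read of Stra8 and 52.4% of Smc1b.

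The share of cells with reads of more than 1 of the genes differed between groups. At day 9, after thinning, 3.37% of WT cells (3 of 89, interval 0.701 to 9.54%) had reads of at least 2 of the genes, 13.6% of 3AKO cells (12 of 88, 7.25 to 22.6%) and 22.4% of 3BKO cells (15 of 67, 13.1 to 34.2%). All 3 were read together in 3 cells of 3AKO and in 0 cells of WT and of 3BKO. The product of the single shares within each batch gives 3.29, 10.6 and 14.1 cells with at least 2 genes, and 0.133, 0.675 and 0.721 cells with all 3. After thinning, the 3 cells of 3AKO with all 3 genes were above the product, while the numbers with at least 2 genes were close to it. Without thinning, all 3 were read together in 1 cell of WT, 3 of 3AKO and 2 of 3BKO. The product then gives 0.258, 1.31 and 1.54 cells, so the genotypes are not told apart by such cells. In 3AKO the most frequent pair was Dazl with Smc1b, in 9 cells (7.27 from the product), and in 3BKO Dazl with Stra8, in 11 cells (11.9 from the product). No depth remains to differ between cells after thinning, but cell state was not held fixed, and a test of co-expression over cells was not run.

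At day 3, 0 of 79 cells of plate 209 (up to 4.56%), 8.86% of plate 210 (7 of 79, 3.64 to 17.4%) and 36.9% of plate 211 (31 of 84, 26.6 to 48.1%) had reads of at least 2 of the genes. The product of the shares gave 0.691, 6.25 and 25.8 cells. On plate 211 Stra8 and Smc1b were read together in 15 cells (14.2 from the product), Dazl and Stra8 in 12 (10.8) and Dazl and Smc1b in 10 (8.82), and 3 cells had all of them (4.02). At least 1 of the 3 genes was read in 70.2% of plate 211 cells, 43.04% of plate 210 cells and 17.7% of plate 209 cells. At day 9 these shares were 31.5% for WT, 50% in 3AKO and 74.6% in 3BKO.

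**Figure D5:**
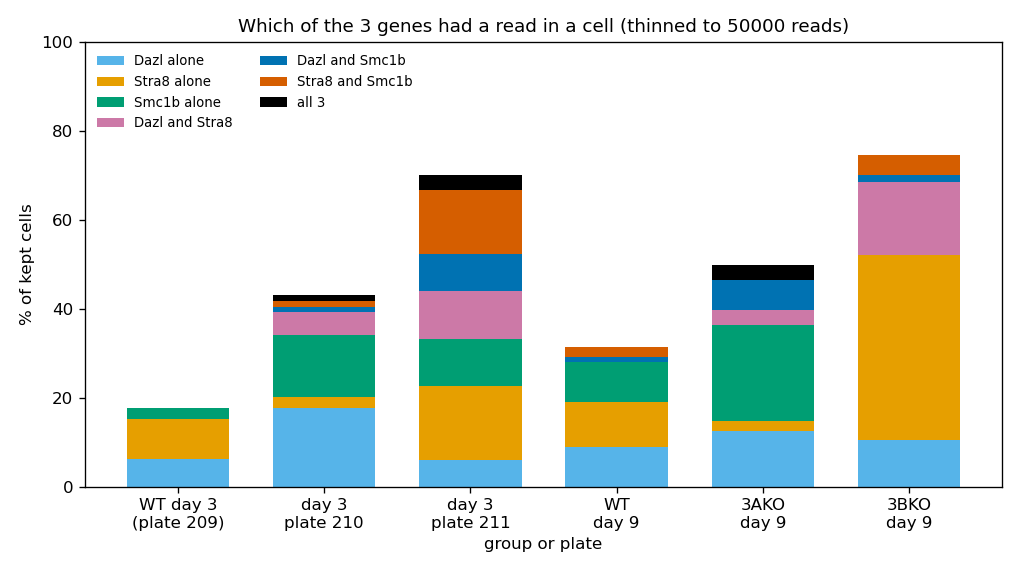
Percent of kept cells (vertical axis) in which each combination of Dazl, Stra8 and Smc1b had a read after thinning to 50000 reads, for WT and plates 210 and 211 at day 3 and for the 3 genotypes at day 9. Stra8 without the others makes up 28 of 67 cells in 3BKO day 9, Smc1b without the others 19 of 88 in 3AKO day 9, and combinations of 2 or 3 genes are most frequent on plate 211.

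Other germline genes were compared in the same way, from lists written with earlier results of these data known. At day 9, 1.87% of all genes compared were called higher in 3AKO over WT and 2.24% lower. For 3BKO over WT these shares were 4% and 5.82%. Single calls in these short lists therefore say little. Of 14 genes of meiotic entry and recombination, 6 were detected widely enough at day 9. Hormad1, which marks unsynapsed meiotic chromosomes, was called higher in 3AKO (67.1 against 18.3 CPM, log2 ratio 1.82), and 0 of the 6 were lower. In 3BKO, 0 were higher and 2 lower: the meiotic recombinase Dmc1 (4.66 against 30.3 CPM, -2.47) and Hormad2 (0.528 against 7.35 CPM, -2.45). The median log2 ratio of the list was -0.39 in 3AKO and -1.61 in 3BKO, beside -0.09 and -0.05 over all genes compared. On plate 211 at day 3, Hormad1 (82.4 against 15.3 CPM, 2.35) and Hormad2 (5.55 against 1.17 CPM, 1.6) were called higher of 6 compared, and on plate 210 0 of 6 were called in either direction.

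Of 11 genes of the meiotic cohesin and the synaptonemal complex, 6 were compared in 3AKO, with 0 called in either direction (median 0.28). In 3BKO 5 were compared and Stag3, a meiotic cohesin subunit, was called lower (2.97 against 12.4 CPM, -1.76; list median -0.45). On the day 3 plates 0 of 6 (plate 210) and 0 of 7 (plate 211) were called. Of the 7 mitotic cohesin genes, all compared, 0 were called in either mutant at day 9 or on either plate at day 3, with medians of -0.45 in 3AKO and 0.27 in 3BKO. At the shares over all genes given above, these counts of 0 say little.

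Among 18 factors of germ cell RNA control and the piRNA pathway, which silences transposons, 9 were compared in 3AKO and 8 in 3BKO. Gpat2, a piRNA pathway factor, was called higher in 3AKO (24.3 against 6.35 CPM, 1.78). In 3BKO Tex19.1, a germline and placental gene known to respond to loss of DNA methylation, was called higher (367 against 63.04 CPM, 2.52), and the RNA-binding protein gene Nanos3 was lower (2.71 against 14.1 CPM, -2.03). The medians were 0.62 and 0.65. On plate 210 at day 3, Boll, a relative of Dazl, was called lower (0.646 against 5.22 CPM, -1.92), as was Tdrd12 (4.17 against 13.8 CPM, -1.52), of 10 compared and with 0.934% of all genes lower. On plate 211 0 of 10 were called.

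Of 8 genes of primordial germ cell specification, 6 were compared at day 9. In 3AKO 0 were called (median 0.32). In 3BKO Prdm14 (119.9 against 51.003 CPM, 1.22) and Tfap2c (92.6 against 42.2 CPM, 1.11), transcription factors of this lineage that are also used in pluripotent cells, were higher and Nanos3 lower (median 0.77). Kit, the receptor that primordial germ cells depend on, was called higher on plate 210 (19.8 against 5.68 CPM, 1.64) and on plate 211 (23.1 CPM, 1.85), and at day 9 it was not called in either mutant.

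Stra8 is named for its response to retinoic acid, and 11 other genes of that response were examined. Of 4 compared at day 9, 0 were called in 3AKO (median 0.03), and in 3BKO 0 were higher and Crabp2, a retinoic acid binding protein, was lower (3.93 against 18.9 CPM, -2.01; median -1.41). Summed over the list, WT had 111 CPM, 3AKO 150.01 and 3BKO 114. At day 3, 5 were compared, and Dhrs3, which reduces retinal, was called higher on plate 210 (44.5 against 16.7 CPM, 1.36) and Aldh1a2, which makes retinoic acid, on plate 211 (5.38 CPM against 0 reads in WT).

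Of 13 subunits and partners of the complexes that repress germline genes (PRC1.6, with E2F6, and H3K9 methyltransferases), all 13 were compared, and 0 were called higher or lower in 3AKO or 3BKO at day 9 or on either mutant plate at day 3. Their median log2 ratios were -0.38, -0.21, -0.13 and -0.10 in that order, and at day 9 they summed to 1199 CPM for WT, 978 for 3AKO and 1255 for 3BKO.

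Among markers of cell states, naive pluripotency genes had a higher summed level in 3BKO day 9 than in WT. The epiblast genes called there went both ways, and their summed level was close to that of WT. Over all genes compared, 4% were called higher in 3BKO and 5.82% lower. Of 11 naive pluripotency genes, 10 were compared and 4 were called higher in 3BKO (Tbx3 2.49, Klf5 2.26, Klf4 2.07 and Zfp42 1.24 on the log2 scale; Tbx3 shares exon bases with Tbx3os1), with 0 lower, and in 3AKO 0 of 10 were called. Their summed level was 2552 and 2089 CPM in the WT pools, 1949 and 1258 in 3AKO, and 6044 and 4118 in 3BKO. Of 9 epiblast genes, Nodal was higher (1.49) and Pim2 (-4.69) and Fgf5 (-4.32) were lower in 3BKO, and 0 were called in 3AKO; the summed level was 2866 and 1816 CPM in WT, 2887 and 3199 in 3AKO, and 2712 and 1906 in 3BKO. On the day 3 plates Klf4 was higher on plate 210 (1.85), and Pim2 was lower on plate 211 (-1.49; 1.44% of all genes were lower there). The part of cell state in the levels of Dazl, Stra8 and Smc1b was not tested.

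Genes of the 2-cell-like state, a rare and transient state of ESC cultures, were read almost only in the day 9 mutants. The summed level of 10 such genes was 0.0862 CPM in WT day 9, with 9 of them at 0, and it was 0 in all day 3 groups. It was 13.4 CPM in 3AKO day 9, with 3 at 0, and 957 in 3BKO day 9, with 1 at 0. By batch, the genes summed to 22.9 and 0 CPM in 3AKO (batch 1 and batch 2) and to 768 and 1119 in 3BKO. In 3BKO, 3 were compared and all of them (Zscan4c, Zscan4d and Zscan4f) were called higher, at 157, 190.0 and 152 CPM. They entered the comparison through 3BKO only, as 1 of 89 WT day 9 cells had a read of any of them. The 3 genes are near-identical copies, and how reads split between them is uncertain. Of 67 cells of 3BKO, 14 had a read of these 3 genes, and Dazl was read in 10 of the 14, Stra8 in 11 and Smc1b in 1, beside 22, 43 and 7 of all 67 cells. In 3AKO 3 of 88 cells had such a read, and Dazl was read in all 3, Smc1b in 2 and Stra8 in 0, beside 27, 39 and 10 of all 88 cells. The part of these cells in the members' levels was not tested.

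The nearest coding genes on each side of the members were read in the same cells. Ribc2, whose start faces that of Smc1b, had 1.09 and 0 CPM in the WT day 9 pools, 0 and 4.54 in 3AKO and 4.20 and 0 in those of 3BKO, from at most 3 thinned cells in a group. Fam118a, on the other side of Smc1b at 1858 bases, had log2 ratios of -0.34 (3AKO over WT) and -0.19 (3BKO over WT). Next to Stra8, Wdr91 (9286 bases away) had 1.68 in 3AKO (1.44 and 2.10 in the batches) and 2.07 in 3BKO with opposite signs in the batches (2.99 and -1.29), and Slc23a4 (5933 bases away) had -0.94 and 0.47. Those next to Dazl, Rftn1 and Plcl2, lie 88720 and 215766 bases away and had 0.58 and -0.71 in 3AKO, and 1.55 and -0.71 in 3BKO.

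Across the 12 pools, the genes whose log2(CPM + 1) was most like that of Dazl, of 12567 genes, were Prss35 (Pearson r 0.85), Kit (0.85), Galnt12 (0.84), Uvrag (0.83) and Abcg1 (0.83). Kit had 7.38 and 3.43 CPM in WT day 3, 18.2 and 28.6 in WT day 9, 65.5 and 25.04 in 3AKO day 9 and 44.8 and 57.05 in 3BKO day 9. For Stra8 they were Plekha6 (0.89), Ypel2 (0.88), Atp2b4 (0.87), Rpl10l (0.87) and Sorl1 (0.86), and for Smc1b they were Hus1b (0.88), Hormad1 (0.86), Platr16 (0.84), Lats1 (0.83) and Plagl1 (0.83). Between the members r was 0.54 for Dazl with Stra8, 0.62 for Dazl with Smc1b and 0.07 for Stra8 with Smc1b. Pools of 1 plate share its handling, and the pools differ in day, genotype label and batch for all genes at once, so these values only describe likeness.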

How the data were processed

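Libraries of single EB cells, sorted into 96-well plates, were made by an adapted Smart-seq2 protocol. The authors deposited 1 table of read counts per gene and cell, with no normalization. Per the labels, they used FastQC 0.11.2, Trim Galore 0.5.0, STAR 2.7.1a (GRCm38.p6, mm10) and featureCounts 1.6.1. Reads mapping to several places were excluded, and use of strand in counting is not given in the sources used here. The table's other 26 columns (8 empty wells and 18 mini-bulk wells) were not used.

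Groups came from the labels, which name no clone or culture, so no test was run. Members, gene lists and named genes (up to 4 called genes per list and the 5 most alike genes per member) were chosen with earlier results of these data known. Counts were summed over kept cells as CPM, and log2 ratios were taken on CPM + 1, which understates changes of low genes. For shares, cells were thinned once to 50000 reads (seed 20), and 1 read made a cell positive. Doublets were not called, as 1 cell was sorted per well. The call rule was tested on simulated data. Alternatives were other cell filters, depths and read minimums, each batch, other scalings (edgeR 4.0.16 TMM factors, DESeq2 1.42.0 median-ratio factors, totals without mitochondrial genes and Gm42418), mean cell CPM, pseudocounts of 0.1 and 10 CPM, the top cell left out, and detection in 5% or 20% of cells. Python 3.11.15, numpy 2.4.6, scipy 1.17.1, pandas 2.3.3 and R 4.3.3 were used, with GENCODE vM21 for positions and neighbours; the deposited counts used another GENCODE release.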

Additional observations from a re-analysis of the deposited data

Results flagged for a closer look

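At day 9 the log2 ratios of Stra8 and of Smc1b to WT had opposite signs in the mutants, in each library batch. The log2 ratio of Stra8 to WT was 4.59 higher in 3BKO than in 3AKO, and that of Smc1b was lower, by -3.03. In 3AKO the Stra8 ratio was positive at day 3, by label, and negative at day 9, a difference of -4.42, and in 3BKO the Smc1b ratio was positive at day 3, by label, and negative at day 9, a difference of -4.14. Over all cells, every batch of 1 condition moved one way and every batch of the other the opposite way. For Stra8 in label 3AKO at day 3, however, batch 2 rests on 1 cell: without the top cell of each pool it had 2.19 CPM and WT 3.83, and its share of cells with a read was 8% beside 16% in WT. By plate at day 3, the Stra8 ratio was 3.74 on plate 211 and 1.80 on plate 210, and that of Smc1b was 4.03 and 2.31. These differences were not tested, since each genotype and day is 1 sample, and the day 3 labels of the mutants are in doubt in batch 2. The direction of Stra8 in 3AKO at day 9 and of Smc1b in 3BKO at day 9 rests on ratios that were not called. Without the top cell of each pool, Stra8 in 3AKO had 9.85 and 1.90 CPM (batch 1 and batch 2), beside 15.02 and 6.68 in WT. Smc1b in 3BKO then had 3.10 and 0 CPM, beside 5.61 and 3.40 in WT.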

How the results depend on the processing

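Of 452 values under other settings, 401 stayed within the spread of the batches or the interval of the share, 51 moved beyond it, and 0 called values changed sign. Ratios whose batches differ widely, such as Dazl in 3BKO over WT at day 9 (1.53 and 4.09), can hardly move beyond that spread. The count of unmoved values therefore partly reflects wide batch spreads. The log2 ratio of Dazl between the mutants at day 9, which was not called, had the opposite sign in 5 alternatives (for example -1.03 in batch 1). In an alternative chosen after seeing the data, the cell with the most reads was left out of every batch pool. Stra8 then lost its call on plate 210, in label 3AKO at day 3 and in WT between the days. It also lost its call of lower in label 3AKO from day 3 to day 9. Dazl gained a call on plate 210, in label 3BKO at day 3 and in WT between the days. The day 9 calls between genotypes were the same. No paired analysis was possible because no result comes from a test and the labels number no replicates, and no replicate could be left out, as each genotype and day is 1 sample. The causes of the following moves were not tested, except that fewer reads or a higher minimum lower a share by construction.

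At day 9, the ratio of Dazl in 3AKO to WT was 2.95 with the stricter cell filter, 2.98 in batch 2, 2.88 with thinned cells and 2.00 with a pseudocount of 10 CPM. That of Stra8 in 3AKO was -1.95 with the stricter filter and -1.92 in batch 2, and that of Smc1b in 3BKO was -0.79 as a mean of cells, -1.30 with thinned cells, -0.94 without the top cell and -0.23 with a pseudocount of 10. At day 3 by label, ratios in 3AKO were 3.62 for Dazl and 1.02 for Stra8 in batch 2, and 1.24 for Smc1b with a pseudocount of 10. In 3BKO they were 1.97 for Stra8 with a pseudocount of 10, and for Smc1b 2.82 in batch 1, 4.66 with a pseudocount of 0.1 and 1.45 with 10. On plate 210 Smc1b had 3.28 and 0.69 with pseudocounts of 0.1 and 10. On plate 211 Stra8 had 3.33 with thinned cells and 2.55 with a pseudocount of 10, and Smc1b had 3.70 as a mean of cells, 3.75 with thinned cells, and 5.11 and 1.76 with pseudocounts of 0.1 and 10.

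With at least 5 reads, the share of Dazl cells was 15.9% in 3AKO day 9 and 1.27, 8.86 and 14.3% on plates 209, 210 and 211. That of Stra8 cells was 2.53% on plate 209 and 21.4% on plate 211, and that of Smc1b cells 5.62% in WT day 9, 11.4% in 3AKO day 9, 0% in 3BKO day 9, and 0, 0 and 5.95% on the 3 plates. With at least 2 reads, Smc1b cells were 0, 7.59 and 19.05% on the plates. Without thinning they were 44.3% in 3AKO day 9 and 52.4% on plate 211, and 50% there at 100000 reads. The share of cells with at least 2 genes was 4.55% in 3AKO day 9, 10.4% in 3BKO day 9 and 5.95% on plate 211 with at least 5 reads, 16.7% on plate 211 with at least 2 reads, 22.7% in 3AKO day 9 and 53.6% on plate 211 without thinning, and 50% on plate 211 at 100000 reads. The percent of genes called higher in 3AKO day 9 was 1.18 among genes read in 20% of cells.

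The number of cells (21 to 61 per pool) and reads without molecular identifiers limit the precision of every share and sum.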
